A study of Mus musculus with 12 samples.

Results

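In the deposited table of ATAC-seq counts, 1275 of 48443 peaks of accessible chromatin in cultured mouse T cells spanned at least 1500 bp from start to end. These wide peaks were chosen by that width alone. They made up 2.63% of the peaks and 8.11% of the summed peak width. The cells were naive CD4+ T cells from spleens of C57BL/6 mice labelled as wild type (WT), activated on plate-bound antibodies to CD3 and CD28 (1 µg/ml each) and cultured for 68 hours. The 4 groups were Th17n cells with DFMO, Th17n cells with vehicle, iTreg cells with DFMO and iTreg cells with vehicle, each from 3 animals. Th17n stands for non-pathogenic Th17 cells, which received IL-6 at 25 ng/ml on top of TGF-beta1 at 2 ng/ml. The induced regulatory T cells (iTreg) received TGF-beta1 alone, at the same 2 ng/ml. DFMO (difluoromethylornithine), given at 100 µM, inhibits ornithine decarboxylase, which starts polyamine synthesis. All groups are in vitro cultures, so the labels describe what the cells were given and not the lineage each cell reached.

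ATAC-seq uses the Tn5 transposase, which inserts adapters into DNA that is not wrapped in nucleosomes. Active promoters and enhancers lose nucleosomes and give peaks. A peak becomes wide where several depleted stretches lie next to each other, as at promoters with CpG islands, at start sites that fire in opposite directions, or where enhancer elements lie close together. In T cells, wide regions of active chromatin have been described at genes for transcription factors and for regulators of cytokine signalling. The peak calls came from these same libraries, so width and level are not independent measures of a region.

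For 7 genes with a start site inside a wide peak, the 250 bases before the RefSeq start are printed here, from the GRCm38.p6 assembly. They stand for the widest gene-end peak (Ptma), the most even peak (Foxd1), peaks that rose or fell with DFMO in Th17n cells (H1f3, Gpr18) or in iTreg cells (Cep57, Fads2), and a peak lower in Th17n than in iTreg cells (Psme2). Each runs 5′ to 3′ on the strand of its gene. Capitals mark matches on either strand to GGGCGG (the GC box), CCAAT (the CCAAT box), CCGGAA (the core of ETS sites), TATAAA (the TATA box), TGACGTCA (the cyclic AMP response element), TGANTCA (the AP-1 site) or TGTGGT (the RUNX site), or to the palindromic NRF1 site. A match in letters is a description and does not show that a factor binds.
Ptma, chr1:86526307-86526556, plus strand: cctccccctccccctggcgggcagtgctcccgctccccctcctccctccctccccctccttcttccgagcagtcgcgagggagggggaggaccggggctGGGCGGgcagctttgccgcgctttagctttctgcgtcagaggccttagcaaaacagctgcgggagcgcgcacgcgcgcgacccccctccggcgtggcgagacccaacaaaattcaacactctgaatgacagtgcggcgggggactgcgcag
Foxd1, chr13:98353995-98354244, plus strand: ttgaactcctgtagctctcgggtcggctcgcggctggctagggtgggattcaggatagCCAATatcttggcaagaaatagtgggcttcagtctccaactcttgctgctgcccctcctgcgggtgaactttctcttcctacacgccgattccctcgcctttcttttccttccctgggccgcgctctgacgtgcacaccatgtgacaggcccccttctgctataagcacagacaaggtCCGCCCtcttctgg
H1f3, chr13:23554782-23555031, plus strand: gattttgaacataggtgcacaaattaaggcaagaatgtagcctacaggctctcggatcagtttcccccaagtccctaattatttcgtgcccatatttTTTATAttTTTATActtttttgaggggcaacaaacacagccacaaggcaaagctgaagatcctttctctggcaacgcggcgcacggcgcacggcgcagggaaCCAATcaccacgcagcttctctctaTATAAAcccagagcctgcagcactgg
Gpr18, chr14:121915889-121916138, minus strand: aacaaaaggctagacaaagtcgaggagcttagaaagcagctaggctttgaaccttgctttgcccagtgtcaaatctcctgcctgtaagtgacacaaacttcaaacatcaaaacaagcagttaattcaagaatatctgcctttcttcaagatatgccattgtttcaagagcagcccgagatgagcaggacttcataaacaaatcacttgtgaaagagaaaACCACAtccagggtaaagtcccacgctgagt
Cep57, chr9:13827054-13827303, minus strand: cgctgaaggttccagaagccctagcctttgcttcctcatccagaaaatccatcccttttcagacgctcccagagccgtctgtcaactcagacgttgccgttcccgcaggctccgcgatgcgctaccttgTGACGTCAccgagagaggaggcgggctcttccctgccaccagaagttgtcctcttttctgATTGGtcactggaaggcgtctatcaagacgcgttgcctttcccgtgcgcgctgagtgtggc
Fads2, chr19:10101504-10101753, minus strand: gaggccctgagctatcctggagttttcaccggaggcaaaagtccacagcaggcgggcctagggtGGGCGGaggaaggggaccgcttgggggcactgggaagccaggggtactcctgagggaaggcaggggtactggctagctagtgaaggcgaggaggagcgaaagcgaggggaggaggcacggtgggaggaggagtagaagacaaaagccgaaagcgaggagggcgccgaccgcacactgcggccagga
Psme2, chr14:55591022-55591271, minus strand: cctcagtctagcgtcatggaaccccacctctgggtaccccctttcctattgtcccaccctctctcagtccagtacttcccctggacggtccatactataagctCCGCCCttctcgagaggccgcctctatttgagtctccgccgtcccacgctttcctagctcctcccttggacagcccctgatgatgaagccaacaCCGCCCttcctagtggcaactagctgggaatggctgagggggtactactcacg

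The GC box was the most frequent of the 8 motifs at wide peaks. RefSeq lists 1328 promoters, each 250 bases before to 50 bases after a start, whose start lay inside 1 of 897 wide peaks. Their median GC content was 68%, against 62.0% for 10776 promoters in other peaks and 48.3% for 20747 promoters in no peak. The median ratio of observed to expected CpG was 0.867 in wide peaks, 0.782 in other peaks and 0.229 in no peak. GGGCGG stood in 77.4% of promoters in wide peaks, 67.4% in other peaks, 16.5% in no peak and 35.7% of all 32851 promoters. TATAAA stood in 5.80%, 5.81%, 18.2% and 13.6% in the same order. The AP-1 letters TGANTCA were in 3.24% of promoters in wide peaks, 5.34% in other peaks and 9.38% in no peak, and the RUNX letters TGTGGT in 8.36%, 12.6% and 19.5%. CCAAT showed little spread over these sets, with 34.7%, 37.4% and 37.6%.

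Wide peaks were also strong peaks. Their median level was 82.6 CPM (counts scaled to a library total of 1000000, mean of 12 libraries), against 9.96 CPM over all peaks. By width, the median was 51.1 CPM for peaks of 1000 to 1499 bp, 19.4 CPM for 500 to 999 bp and 4.99 CPM below 500 bp. Part of that order is width itself. Per kilobase the medians were 46.5, 43.2, 28.3 and 16.1 CPM from the widest to the narrowest class, so wide peaks lay close to the class next to them. Of the wide peaks, 80.5% were in the strongest 10% of peaks by level, and they formed 21.2% of that stratum. Within the wide peaks, width and level were weakly related (Spearman's rho 0.28 over 1275 peaks, which share the 12 libraries). Over all peaks rho was 0.84. Widths had a median of 1694 bp and reached 3913 bp, with 226 peaks of at least 2000 bp, 48 of at least 2500 bp and 13 of at least 3000 bp.

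**Figure D1:**
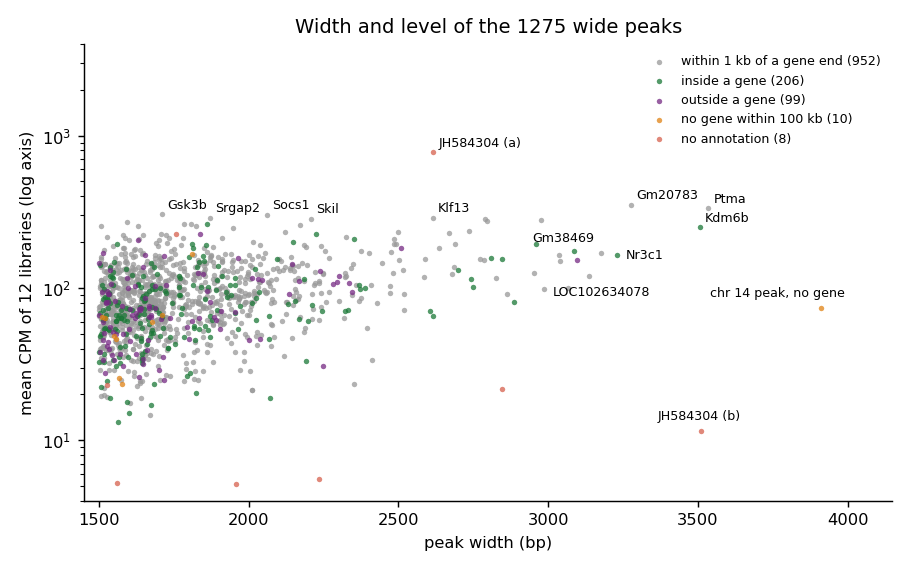
Each point is a wide peak, with its width in bp on the horizontal axis and its mean CPM over 12 libraries on a log axis, coloured by place relative to protein-coding genes. Levels run from 5.19 to 781 CPM, and the 2 peaks marked JH584304 lie on the same unplaced contig, (a) at 781 CPM and (b) at 11.5 CPM.

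The widest peak at a gene end was that of Ptma, which encodes the acidic nuclear protein prothymosin alpha, at 3535 bp (chr1:86525257-86528792). It had 334, 294 and 320 CPM in the 3 Th17n DFMO libraries (animals 1, 2 and 3), 275, 286 and 254 CPM in Th17n vehicle, 362, 397 and 388 CPM in iTreg DFMO and 365, 371 and 351 CPM in iTreg vehicle. The 6 Th17n libraries all lay below the 6 iTreg libraries. With cyclic loess, which removes differences that follow the level of a peak, the lineage change in vehicle was 0.065, against -0.48 by TMM (trimmed mean of M values), and in DFMO it was 0.21 (adjusted p = 0.00688). Kdm6b, which encodes a demethylase of histone H3 lysine 27, had a peak of 3506 bp inside the gene (chr11:69408616-69412122; mean 251 CPM). Nr3c1, the glucocorticoid receptor gene, had one of 3230 bp (164 CPM), and the predicted genes Gm20783, Gm38469 and LOC102634078 had peaks of 3276, 3177 and 3135 bp.

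The widest peak of all, 3913 bp at chr14:19415730-19419643, had no protein-coding gene within 100 kb. Its level was 51.3, 91.7 and 162 CPM in Th17n DFMO, 50.9, 39.1 and 48.7 CPM in Th17n vehicle, 191, 52.2 and 59.2 CPM in iTreg DFMO and 43.0, 41.1 and 53.0 CPM in iTreg vehicle. Single DFMO libraries stood far above the rest, animal 3 in Th17n and animal 1 in iTreg. The fitted rise passed the threshold in both lineages (log2 change 1.15 ± 0.27 in Th17n and 1.10 ± 0.26 in iTreg, SE; edgeR adjusted p = 0.0053 and 0.0061). In Th17n the adjusted p was 0.18 without the DFMO library of animal 3, 0.065 without the vehicle library of animal 2 and 0.214 with DESeq2. In iTreg it was 0.444 without the DFMO library of animal 1, 0.168 with DESeq2 and 0.0824 with cyclic loess.

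The highest wide peak lay on the unplaced contig JH584304 (58722 to 61337), at a mean of 781 CPM. It had 816, 816 and 800 CPM in Th17n DFMO, 821, 656 and 872 CPM in Th17n vehicle, 964, 839 and 855 CPM in iTreg DFMO and 719, 602 and 614 CPM in iTreg vehicle. All 3 iTreg DFMO libraries lay above all 3 iTreg vehicle libraries (log2 change 0.48 ± 0.08, edgeR adjusted p = 0.0001, but 0.338 with cyclic loess). That contig held 24 peaks, of which 6 were wide. Unplaced contigs are often repeated sequence, and the mapping filter is not given in the sources used here. Among genes, the highest wide peaks after Gm20783 (351 CPM) and Ptma (333 CPM) were those of Gsk3b, a kinase of the Wnt and insulin pathways (304 CPM), and of Socs1, an inhibitor of JAK-STAT signalling (303 CPM). Srgap2, which encodes a GTPase-activating protein, had 290 CPM. Klf13, a zinc finger transcription factor of the T cell lineage, had 289 CPM, and Skil, whose product SnoN represses SMAD proteins, had 285 CPM.

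Wide peaks lay mostly at genes. A peak was placed at a gene end when it came within 1 kb of either end of the nearest protein-coding gene model, since the annotation used for that step has no strand. By this rule 952 wide peaks (74.7%) lay at a gene end, against 23.8% of all other peaks. Another 206 (16.2%, against 43.4%) lay inside a gene and 99 (7.76%, against 27.9%) outside. The median level was 87.1 CPM at gene ends, 72.6 CPM inside and 71.9 CPM outside, so wide peaks away from gene ends were nearly as strong. The other peaks at gene ends had a median of 30.2 CPM.

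**Figure D2:**
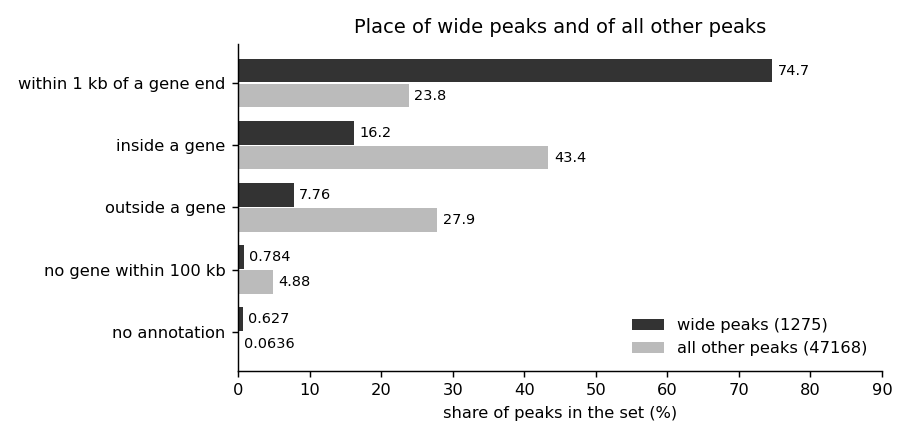
Bars give the share (%) of the 1275 wide peaks (dark) and of the 47168 other peaks (grey) by place relative to the nearest protein-coding gene. Gene ends hold 74.7% of wide peaks and 23.8% of the others.

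Start sites with a strand gave the same picture. Of 1239 wide peaks on chromosomes with RefSeq starts, 897 (72.4%) contained at least 1 start, against 18.5% of the other peaks. Starts of 2 or more genes fell in 210 (16.9%, against 2.71%). A divergent pair of starts, at most 1 kb apart, lay in 153 of them (12.3%, against 2.12%). Among peaks that held any start, the share with a divergent pair was 17.1% for wide and 11.4% for other peaks. Starts were counted only inside a peak, so a wider peak has more room for them. Peaks with a start had a median width of 1701 bp if wide and 894 bp if not, and these shares were not corrected for width. Cep57, which encodes a centrosomal protein, shares such a peak with Fam76b, and Psme2, which encodes a subunit of the proteasome activator PA28, shares one with Rnf31. At the other end, 232 wide peaks (18.7%, against 55.8%) held no start and lay over 10 kb from the nearest one.

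Genes for small RNAs fell in a few wide peaks. A tRNA gene was overlapped by 18 wide peaks (1.41%, against 0.271% of the others), an snRNA gene by 5, a snoRNA gene by 1 and a miRNA gene by 17. These overlaps too were not corrected for width. Over the autosomes and the X chromosome the share of peaks that were wide ran from 1.90% on chromosome 15 to 3.74% on chromosome 17, and chromosome 11 had the most (120). Chromosome Y had 1 wide peak among 9. The 1257 wide peaks with a gene belonged to 1224 genes, 8.42% of the 14539 genes with any peak. Bach2, a repressor that restrains effector differentiation, and Bcor, a corepressor that partners BCL6, each had 3 wide peaks, and 29 genes had 2.

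Wide peaks were frequent at genes of T cell activation and of cytokine feedback. Of all protein-coding genes with a peak by the same rule, 9.07% had a wide one. For activation, immediate early and AP-1 genes it was 17 of 42 (40.5%), among them Jun (2977 bp, 280 CPM), Egr1 (214 CPM), the dual specificity phosphatases Dusp1 and Dusp2, and the NF-kappaB inhibitor gene Nfkbia with wide peaks at its gene end and outside. For cytokine and TGF-beta feedback it was 13 of 30 (43.3%), including Socs1, Socs2, Cish, Skil, Smad3 and the receptor genes Tgfbr1 and Tgfbr2. Chromatin and DNA modifiers had 11 of 30, among them Ezh2, Eed, Kdm6a, Dnmt3a and Brd2. Replication-dependent histone genes had 16 of 49, which shared 9 peaks. T cell receptor and identity genes had 9 of 30, with Bcl11b, Cd2, Cd247, Fli1, Ikzf1, Lat, Runx1, Runx3 and Zap70.

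Genes that define the lineages gave lower shares than the activation and feedback lists. The Th17 list (8%) lay just below the 9.07% of all protein-coding genes with a peak, and the Treg list (20.8%) above it. In the Th17 list 2 of 25 genes had a wide peak: Maf, a transcription factor of IL-17 and IL-10 producing cells (94.97 CPM), and Rora, a nuclear receptor of Th17 cells (65.4 CPM). The Treg list had 5 of 24 (Ctla4, Foxo1, Foxo3, Nrp1 and Socs2). Polyamine genes had 5 of 23: Amd1, which makes decarboxylated S-adenosylmethionine, Azin1, which shields ornithine decarboxylase from antizyme, the polyamine transporter gene Atp13a3, Mat2a, which makes S-adenosylmethionine, and the arginine transporter gene Slc7a1. Odc1, the gene of ornithine decarboxylase itself, had no wide peak. The share for polyamine genes was 21.7%. Cytosolic ribosomal protein genes had 1 of 77 (Rpl11, with its peak 35423 bp away) and zinc finger genes named Zfp had 21 of 340. Lists for other cell types had 0 of 4 (B cells), 1 of 9 (myeloid cells, Cebpb) and 0 of 7 (cytotoxic T and NK cells). Raised shares were not particular to activation and feedback genes. Cell cycle genes had 9 of 28 (32.1%), naive and memory T cell genes 5 of 20 (25%) and glycolysis and hypoxia genes 5 of 24 (20.8%). Interferon response genes had 2 of 19 (10.5%) and mitochondrial ribosomal protein genes 6 of 75 (8%). These shares are descriptions and were not tested.

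Depth and cell identity were uneven. Total counts ran from 1020937 to 6496550 per library, a ratio of 6.36. Even in the smallest library the median wide peak held 76 counts, against 12 over all peaks, and the lowest count of a wide peak in any library was 2. All 1275 passed the filter on low counts. The median within-group coefficient of variation was 10.9% for wide peaks and 25.9% over all peaks tested. Gene-end peaks of 3 of 4 Th17 markers summed to 17.6 to 25.7 CPM in Th17n DFMO, 38.8 to 41.9 CPM in Th17n vehicle, 2.85 to 9.39 CPM in iTreg DFMO and 2.83 to 3.44 CPM in iTreg vehicle. Those of 3 of 4 Treg markers summed to 156 to 196, 251 to 266, 136 to 147 and 161 to 192 CPM in the same order, so the Treg sum was highest in Th17n vehicle. Foxp3 and Cd4 had no gene-end peak, and B cell markers had 0 gene-end peaks of 5. The 2 of 5 myeloid markers with a gene-end peak summed to 27.3 to 31.9, 28.6 to 42.0, 21.8 to 25.2 and 20.4 to 29.2 CPM in that order, and the 3 of 5 cytotoxic and NK markers to 21.2 to 29.6, 28.5 to 31.3, 19.3 to 32.9 and 17.9 to 21.4 CPM. Counts with libraries thinned to the smallest total are given below. The part of these markers in the results was not tested.

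The first question was whether wide peaks took the same share of all counts in each group. The share was 11.4%, 10.9% and 11.4% in Th17n DFMO, 10.5%, 10.9% and 10.7% in Th17n vehicle, 12.6%, 12.9% and 13.1% in iTreg DFMO and 12.7%, 12.98% and 12.6% in iTreg vehicle. All 6 Th17n libraries lay below all 6 iTreg libraries. The difference was -1.85 percentage points (exact permutation test stratified by treatment, two-sided p = 0.005, the smallest that 400 arrangements allow; Benjamini-Hochberg p = 0.0125 over 10 tests). It was -1.62 points in DFMO and -2.09 points in vehicle, each with an exact permutation p of 0.1, the smallest that 3 against 3 allows. DFMO against vehicle gave 0.285 points (exact permutation p = 0.1, Benjamini-Hochberg p = 0.143). That value was 0.520 points in Th17n and 0.0502 points in iTreg (exact permutation p = 0.2 and 0.8). Without the iTreg DFMO library of animal 1 the pooled value was 0.355 points, with an exact permutation p of 0.035, not adjusted. These tests did not pair libraries by animal. With animal as a replicate block, the exact permutation p was 0.03125 for lineage and 0.25 for DFMO, not adjusted.

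The lineage difference in share was not confined to wide peaks. Other peaks at gene ends took 39.6% ± 0.667, 37.9% ± 0.509, 46.4% ± 1.02 and 45.1% ± 1.09 of counts in Th17n DFMO, Th17n vehicle, iTreg DFMO and iTreg vehicle (SD, n = 3 each), a Th17n minus iTreg difference of -6.98 points (exact permutation p = 0.005, Benjamini-Hochberg p = 0.0125). Among gene-end counts alone, gene-end wide peaks took 17.9% ± 0.166, 17.7% ± 0.351, 17.9% ± 0.487 and 18.1% ± 0.295 in the same order. That difference was -0.179 points (exact permutation p = 0.39, Benjamini-Hochberg p = 0.487). Wide peaks away from gene ends differed by -0.224 points (exact permutation p = 0.005, Benjamini-Hochberg p = 0.0125). For DFMO against vehicle, other peaks at gene ends gained 1.51 points (exact permutation p = 0.02, Benjamini-Hochberg p = 0.04). Gene-end wide peaks as a share of gene-end counts then differed by -0.0141 points (exact permutation p = 0.935, Benjamini-Hochberg p = 0.935). In bulk libraries, fewer cells with a region open and less accessibility per cell cannot be told apart.

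**Figure D3:**
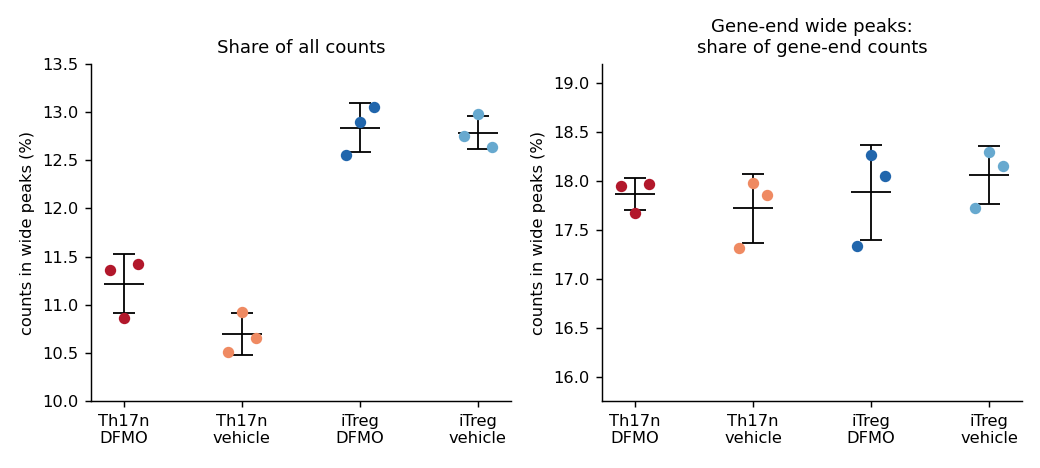
Points are libraries, bars the mean and whiskers the SD of 3. Left, the share (%) of all counts in wide peaks, 10.5% to 11.4% in Th17n and 12.6% to 13.1% in iTreg cells; right, gene-end wide peaks as a share (%) of gene-end counts, with the 4 groups overlapping. Neither axis starts at 0.

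Between the lineages, wide peaks were mostly lower in Th17n than in iTreg cells when scaled by TMM. In vehicle 43 wide peaks were higher and 652 lower in Th17n (edgeR quasi-likelihood test, Benjamini-Hochberg adjusted p under 0.05 over 43726 peaks tested). That is 3.37% and 51.1% of wide peaks, against 25.2% and 19.3% of all peaks tested. In DFMO it was 53 higher and 486 lower (4.16% and 38.1%, against 22.5% and 14.7% of all peaks). The median log2 change of wide peaks was -0.34 in vehicle and -0.26 in DFMO, against -0.07 and -0.00 over all peaks. The sizes were small, with 25 wide peaks past the threshold and 2-fold in vehicle (11 higher, 14 lower) and 24 in DFMO (15 and 9). Over all 43726 peaks tested, 9670 were higher and 3142 lower by that mark in vehicle, and 8681 and 2424 in DFMO. Other peaks at gene ends had a median of -0.32 in vehicle (438 higher and 3289 lower of 10779), and other peaks inside genes had 0.26.

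That direction depended on the scaling. Scaled by the total count in other gene-end peaks, wide peaks were 118 higher and 122 lower in vehicle and 148 higher and 58 lower in DFMO, and their medians were -0.02 and 0.03. That scaling placed the median of all peaks at 0.25 and 0.29. With limma voom and cyclic loess, 228 were higher and 154 lower in vehicle, and 158 higher and 54 lower in DFMO. Under both scalings all 43 peaks higher by TMM in vehicle kept that call, and 122 and 153 of the 652 lower ones did. Both moved the median of wide peaks in vehicle upward, from -0.34 by TMM to -0.02 and 0.01. Such a shift favours higher calls, so keeping them is not a test of those peaks. The gene lists followed the scaling. By TMM, 11 of 20 peaks of the activation list, 10 of 13 of the feedback list, 10 of 13 of the chromatin list and 4 of 5 of the polyamine list were lower in Th17n cells in vehicle (55%, 76.9%, 76.9% and 80%, against 51.1% of all wide peaks), so the activation list lay close to wide peaks as a whole. Over the other scalings and tests these counts ran from 1 to 11, 1 to 11, 0 to 11 and 1 to 4. Of the named peaks lower by TMM, 6 in vehicle and 4 in DFMO passed the threshold as higher with cyclic loess, among them Jun in vehicle (0.33, adjusted p = 5.02e-07). With libraries left out one at a time, of the 4 lineage counts only that of lower peaks in vehicle moved past 1.5 times. It was 402 without the Th17n vehicle library of animal 3.

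**Figure D4:**
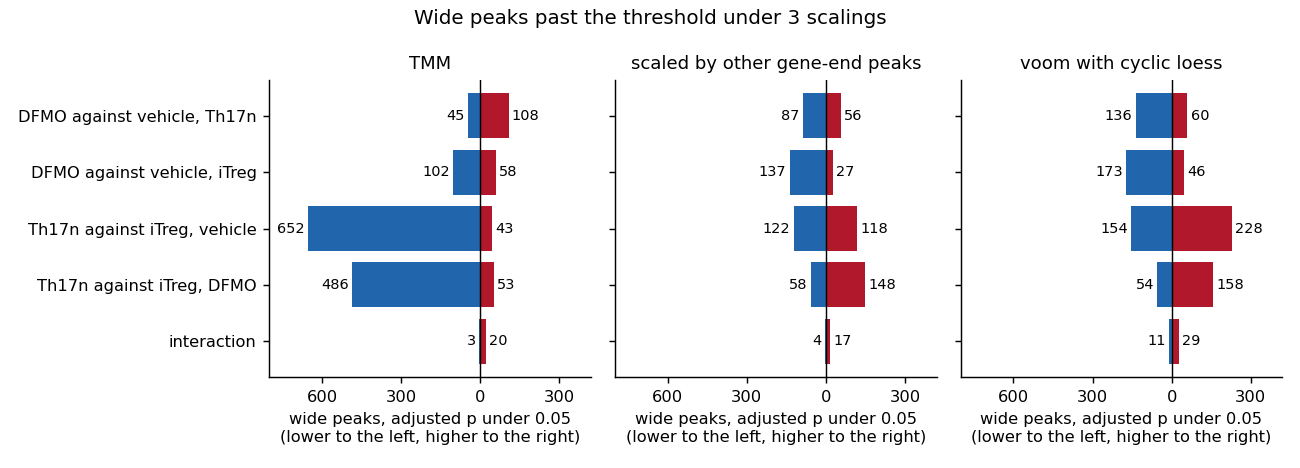
Bars count the wide peaks past an adjusted p of 0.05 in each comparison, lower to the left and higher to the right of 0, under TMM, under scaling by other gene-end peaks and under voom with cyclic loess. For Th17n against iTreg in vehicle the counts are 652 lower and 43 higher, 122 and 118, and 154 and 228.

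Some of the wide peaks that were higher in Th17n cells differed several fold. At Egln3, a prolyl hydroxylase of HIF proteins (chr12:54176530-54178319), levels were 29.9, 22.5 and 26.0 CPM in Th17n DFMO, 68.6, 69.6 and 79.3 CPM in Th17n vehicle, 10.6, 9.49 and 3.22 CPM in iTreg DFMO and 12.3, 7.09 and 11.3 CPM in iTreg vehicle. Every Th17n library lay above every iTreg library. The log2 change was 2.80 ± 0.25 in vehicle and 1.82 ± 0.31 in DFMO (SE; adjusted p = 8.6e-13 and 4.6e-06). At Zfp51, a zinc finger gene (chr17:21463483-21465274), levels were 78.0, 120 and 84.6 CPM in Th17n DFMO, 162, 155 and 164 CPM in Th17n vehicle, 29.9, 23.2 and 33.7 CPM in iTreg DFMO and 22.5, 31.0 and 36.4 CPM in iTreg vehicle. The groups again did not overlap between lineages (2.29 ± 0.16 in vehicle, adjusted p = 4e-16).

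Several of these regions lay inside or far from genes. A peak inside Ttll5, a tubulin polyglutamylase gene (chr12:86046103-86048171), had 51.5 ± 8.55 CPM in Th17n DFMO, 85.5 ± 9.62 CPM in Th17n vehicle, 25.9 ± 2.64 CPM in iTreg DFMO and 20.9 ± 2.60 CPM in iTreg vehicle (SD, n = 3 each; 1.95 ± 0.18 in vehicle, adjusted p = 2.1e-12). Tnip2, which encodes a regulator of NF-kappaB, had a log2 change of 1.45 ± 0.16 in vehicle, and a peak 41421 bp from Sc5d, a gene of cholesterol synthesis, had 1.20 ± 0.15 (adjusted p = 2.2e-10 and 4.1e-09). In DFMO the Sc5d peak differed by 1.86 ± 0.16 and a peak inside Evl, which encodes a regulator of actin, by 1.85 ± 0.20 (adjusted p = 5.8e-13 and 2.8e-10). A peak inside Cpd, a carboxypeptidase gene, had the highest ratio of group means among wide peaks, 14, with 27.3 ± 5.54, 30.8 ± 2.03, 2.20 ± 0.643 and 7.55 ± 3.63 CPM in Th17n DFMO, Th17n vehicle, iTreg DFMO and iTreg vehicle. Cd247, the T cell receptor zeta chain gene, was higher in Th17n cells inside the gene (0.61 in vehicle and 1.30 in DFMO, adjusted p = 0.001 and 4.8e-08), while Cd2, an adhesion receptor gene, was lower (-1.10 and -0.69, adjusted p = 4.3e-08 and 0.00085). For Cd2 in DFMO that p was 0.0573 scaled by other gene-end peaks and 0.0963 with cyclic loess. Maf was higher in Th17n cells (0.43 and 0.92, adjusted p = 0.009 and 1e-06; 0.0563 in vehicle without Th17n vehicle animal 2), and Rora had -0.10 and -0.06 (adjusted p = 0.61 and 0.79).

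Among the wide peaks lower in Th17n cells, that at Zbtb10, a zinc finger gene, fell furthest of those named in vehicle (-1.33 ± 0.15, adjusted p = 5.2e-10). It had 51.0 ± 8.93, 35.4 ± 3.25, 94.6 ± 2.61 and 86.8 ± 2.29 CPM in Th17n DFMO, Th17n vehicle, iTreg DFMO and iTreg vehicle (SD, n = 3 each). Psme2, whose upstream sequence is printed above (peak at chr14:55590564-55592084), had 121, 120 and 116 CPM in Th17n DFMO, 119, 124 and 96.9 CPM in Th17n vehicle, 152, 171 and 150 CPM in iTreg DFMO and 193, 183 and 187 CPM in iTreg vehicle. All Th17n libraries lay below all iTreg libraries (-0.80 ± 0.11 in vehicle, adjusted p = 1.2e-07). Tle4, a corepressor gene, and Srsf2, a splicing factor gene, each had -0.76 ± 0.11 in vehicle (adjusted p = 3.2e-07 and 2.5e-07). In DFMO a peak 19953 bp from Irf2bpl (chr12:86859241-86860750), which encodes a binding partner of IRF2, was lower by the most of those named, at 60.1, 59.3 and 61.2 CPM in Th17n and 159, 153 and 164 CPM in iTreg cells (-1.46 ± 0.13, adjusted p = 1.3e-12). Tbl1xr1, which encodes a subunit of the NCoR corepressor, had -1.05 ± 0.15 (adjusted p = 4.2e-07).

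In Th17n cells with DFMO, 108 wide peaks were higher and 45 lower than with vehicle (8.47% and 3.53%, against 4.5% and 4.28% of all peaks tested). An unadjusted p under 0.05 was reached by 355 of 1275 wide peaks, against 10138 of all 43726 peaks tested. The median log2 change was 0.07 for wide peaks and 0.01 over all peaks. The split depended on scaling, with 56 higher and 87 lower when scaled by other gene-end peaks and 60 and 136 with cyclic loess. Of the 108 higher peaks, 56 and 58 kept the call under these scalings, and all 45 lower ones did. Both scalings moved the median of wide peaks downward, from 0.07 to -0.02 and -0.05. That shift favours lower calls, so keeping them is not a test of those peaks. Single libraries mattered as well. The higher count was 28, 57 and 43 without DFMO animals 1, 2 and 3, 40, 55 and 30 without vehicle animals 1, 2 and 3, and 66 without iTreg DFMO animal 3. The lower count was 29 without DFMO animal 2, 26 without vehicle animal 2 and 25 without vehicle animal 3.

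Histone, tRNA and snRNA genes made up part of the gains. H1f3, a linker histone gene (peak at chr13:23554955-23556503), had 235, 232 and 256 CPM in Th17n DFMO and 109, 137 and 128 CPM in Th17n vehicle, with no overlap (0.95 ± 0.12, adjusted p = 5.6e-07). In iTreg cells it had 175, 244 and 196 CPM with DFMO and 216, 177 and 159 CPM with vehicle, which overlapped (0.19 ± 0.12, adjusted p = 0.33). Its printed upstream sequence carries TATAAA and CCAAT matches and no GC box. Of 9 wide peaks at replication-dependent histone genes, 8 rose with DFMO in Th17n cells (6 to 8 under the other scalings and tests), with a median log2 change of 0.53. The share was 88.9%, against 8.47% of all wide peaks and 4.5% of all peaks tested. The count was 3 without Th17n DFMO animal 1 and 5 without Th17n vehicle animal 1 or 3. The ninth, at H4c11, had 0.38 (adjusted p = 0.092). In iTreg cells 0 of 9 passed in either direction, with a median of 0.01, but 2 fell without iTreg DFMO animal 2. The interaction of DFMO and lineage passed for 4 (H2ac4, H1f3, H2bc12 and H2bc11), or 44.4%, against 1.57% of all wide peaks in that direction. It passed for 1 without animal 1 or 3 of Th17n DFMO, Th17n vehicle or iTreg DFMO, for 2 without Th17n DFMO animal 2 or iTreg vehicle animal 2 and with DESeq2 or its size factors, and for 6 without iTreg DFMO animal 2. In vehicle all 9 were lower in Th17n than in iTreg cells by TMM, as were 51.1% of all wide peaks. The count was 3 when scaled by other gene-end peaks and 2 with cyclic loess. In DFMO 0 of 9 passed in either direction by TMM, while 3 and 7 were higher in Th17n cells under those scalings. The DFMO rise and the lineage difference in vehicle both use the Th17n vehicle libraries, so they are not separate results. Histone genes are multi-copy, so 37 bp reads may be shared between copies.

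Of 18 wide peaks at a tRNA gene, 11 (61.1%) rose with DFMO in Th17n cells and 0 fell, against 8.47% and 3.53% of all wide peaks. The median log2 change was 0.51. The higher count was 9 to 12 under the other scalings and tests, and 7 without Th17n DFMO animal 1 or Th17n vehicle animal 3. All 5 at an snRNA gene rose, but 3 without Th17n DFMO animal 3 or Th17n vehicle animal 1 or 3, with cyclic loess or with libraries thinned to the smallest total. In iTreg cells 1 of 18 (5.56%) and 1 of 5 (20%) rose, against 4.55% of all wide peaks. Of the 127 narrower tRNA gene peaks tested, 78 rose in Th17n cells and 29 in iTreg cells. Their median log2 changes were 0.76 and 0.44, against 0.51 and 0.14 for the wide ones. Of the 30 narrower snRNA gene peaks, 25 and 8 rose, and 1 fell in Th17n cells. Their medians were 0.98 and 0.31, against 0.59 and 0.21 for the wide ones, so these rises were not particular to wide peaks. In vehicle, 17 of the 18 wide tRNA peaks and all 5 wide snRNA peaks were lower in Th17n than in iTreg cells by TMM, against 51.1% of all wide peaks. Those counts were 5 and 2 when scaled by other gene-end peaks, and 7 and 0 with cyclic loess. In DFMO 2 of 18 and 2 of 5 were lower by TMM. The lineage difference in vehicle again shares the Th17n vehicle libraries with the DFMO rise. The peak at Mrpl58, which encodes a hydrolase of the mitochondrial ribosome, also covers tRNA genes (chr11:115412420-115414041). Its levels were 213, 182 and 206 CPM in Th17n DFMO, 84.2, 104 and 102 CPM in Th17n vehicle, 183, 213 and 179 CPM in iTreg DFMO and 168, 152 and 160 CPM in iTreg vehicle. The Th17n vehicle libraries stood below all the others (1.05 ± 0.11 in Th17n, adjusted p = 1.8e-08; 0.28 ± 0.11 in iTreg, adjusted p = 0.099). A tRNA cluster 16860 bp from Osbp, a sterol-binding protein gene, rose in both lineages, by 0.99 ± 0.12 and 0.49 ± 0.12 (adjusted p = 4.9e-07 and 0.0047); in iTreg cells the adjusted p was 0.0608 with libraries thinned to the smallest total. Alyref2, an mRNA export factor gene next to an snRNA gene, had 222, 188 and 175 CPM in Th17n DFMO and 90.1, 119 and 98.1 CPM in Th17n vehicle (0.93 ± 0.13, adjusted p = 2.3e-06).

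In both lineages, CCAAT stood in more of the promoters at wide peaks that rose with DFMO than at those that fell. In Th17n cells 61.6% of 112 promoters at 74 peaks that rose held it, and 37.1% of 35 promoters at 23 peaks that fell. In iTreg cells it was 51.4% of 70 promoters at 43 peaks that rose, and 40.3% of 62 promoters at 47 peaks that fell. It stood in 42.4% of 735 promoters at peaks lower in Th17n than in iTreg cells in vehicle, and in 34.7% of all promoters in wide peaks. TATAAA stood in 16.1% of the promoters at peaks that rose and 5.71% at those that fell in Th17n cells, against 5.80% of all in wide peaks. In iTreg cells it went the other way, with 2.86% at peaks that rose and 11.3% at those that fell. Histone promoters are among these, and the shares are descriptions that were not tested.

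Losses with DFMO in Th17n cells included some of the peaks that were higher in Th17n than in iTreg cells. Egln3 fell to 22.5 to 29.9 CPM with DFMO, against 68.6 to 79.3 CPM with vehicle (-1.44 ± 0.23, adjusted p = 4.3e-05). A peak 3638 bp from the predicted gene Gm46963 had 32.2, 30.7 and 39.1 CPM with DFMO and 71.5, 81.4 and 81.6 CPM with vehicle (-1.21 ± 0.20, adjusted p = 3.9e-05). Gpr18, a G protein-coupled receptor gene of lymphocytes (peak at chr14:121915696-121917224), had 28.9, 47.2 and 44.9 CPM with DFMO and 99.9, 77.6 and 59.9 CPM with vehicle (-0.93 ± 0.19, adjusted p = 0.00086). Its printed sequence has a RUNX match and no GC box. In each of these 3 the groups did not overlap, which follows in part from naming peaks with a small p. Zfp51 fell by 0.74 on the log2 scale and Selp, the P-selectin gene, by 0.73 (adjusted p = 0.00088 and 0.0011). A peak 11945 bp from Dusp2, a phosphatase gene of MAP kinases, fell in both lineages, by 0.95 in Th17n and 1.15 in iTreg cells (adjusted p = 0.00031 and 9.9e-05).

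In iTreg cells with DFMO, 58 wide peaks were higher and 102 lower than with vehicle (4.55% and 8%, against 3.84% and 4.72% of all peaks tested). An unadjusted p under 0.05 was reached by 363 of 1275 wide peaks, against 9963 of all 43726 peaks tested. The median log2 change was 0.01 for wide peaks and -0.01 over all peaks. Scaled by other gene-end peaks the counts were 27 higher and 137 lower, and with cyclic loess 46 and 173, so under those scalings lower peaks outnumbered higher ones in both lineages. All 102 lower peaks kept the call under both. Here too both scalings moved the median of wide peaks downward, from 0.01 to -0.05 and -0.06, which favours lower calls. The higher count was 38 and 12 without DFMO animals 1 and 3, and 30 and 13 without vehicle animals 2 and 3. The lower count was 58, 45, 57 and 44 without the same libraries. At gene ends 43 were higher and 54 lower (4.52% and 5.67% of 952). Inside genes it was 9 and 26 (4.37% and 12.6% of 206), and outside 3 and 20 (3.03% and 20.2% of 99). The shares for other peaks in these places were 3.61% and 3.45%, 3.63% and 5.44%, and 3.87% and 4.58%.

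Losses past 2-fold in iTreg cells numbered 12, against 2 gains, among 1275 wide peaks. Over all 43726 peaks tested they numbered 1232 and 955, so changes of that size were rarer among wide peaks. Fads2, a fatty acid desaturase gene (peak at chr19:10100699-10102206), had 28.2, 37.5 and 17.6 CPM in iTreg DFMO and 105, 83.4 and 101 CPM in iTreg vehicle, with no overlap (-1.82 ± 0.18, adjusted p = 6.9e-09). In Th17n cells it had 57.8, 57.1 and 58.0 CPM with DFMO and 75.4, 69.1 and 54.3 CPM with vehicle, which overlapped (-0.15 ± 0.17, adjusted p = 0.65). Evl (chr12:108645571-108647129) had 17.0, 22.8 and 18.8 CPM in iTreg DFMO and 37.3, 54.4 and 67.9 CPM in iTreg vehicle (-1.46 ± 0.20, adjusted p = 2.4e-06), and it also fell in Th17n cells (-0.66 ± 0.16, adjusted p = 0.0069, but 0.0546 without DFMO animal 3 and 0.0548 without vehicle animal 2). A peak 2623 bp from Igtp, an interferon-induced GTPase gene, fell by 1.5 ± 0.22 in iTreg and 0.67 ± 0.21 in Th17n cells (adjusted p = 8e-06 and 0.036). In Th17n cells that p was 0.058 with animal as a replicate block, 0.0504 with libraries thinned, 0.0856 and 0.12 without DFMO animals 1 and 2, and 0.11 and 0.153 without vehicle animals 2 and 3. A peak 29579 bp from Fgfbp1, which encodes a carrier of fibroblast growth factors, fell by 1.07 ± 0.13 in iTreg and 0.63 ± 0.14 in Th17n cells (adjusted p = 9.5e-07 and 0.0023). Cpd fell by 1.81 ± 0.48 in iTreg cells (adjusted p = 0.0066), on low counts, and had an adjusted p of 0.302 with libraries thinned to the smallest total, 0.0745 without DFMO animal 3 and 0.145 without vehicle animal 3.

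Gains in iTreg cells included the divergent promoter of Cep57. The Irf2bpl peak had 159, 153 and 164 CPM in iTreg DFMO and 93.1, 96.3 and 96.4 CPM in iTreg vehicle (0.75 ± 0.12, adjusted p = 3.9e-05), with no overlap. In Th17n cells it had 60.1, 59.3 and 61.2 CPM with DFMO and 67.6, 63.0 and 56.4 CPM with vehicle (-0.01 ± 0.13, adjusted p = 0.98). The divergent Cep57 peak (chr9:13826546-13828271) had 313, 294 and 301 CPM in iTreg DFMO and 232, 238 and 176 CPM in iTreg vehicle (0.51 ± 0.11, adjusted p = 0.0013). Sin3a, the scaffold of a histone deacetylase complex, rose by 0.44 ± 0.10 (adjusted p = 0.0022). Socs1 rose in both lineages, to 343, 323 and 350 CPM with DFMO, against 232, 259 and 206 CPM with vehicle in Th17n cells, and to 340, 373 and 359 CPM with DFMO, against 268, 289 and 288 CPM with vehicle in iTreg cells (0.56 ± 0.10 and 0.36 ± 0.09, adjusted p = 0.0001 and 0.01). In iTreg cells that p was 0.0666 without DFMO animal 3 and 0.368 with cyclic loess. Over both lineages 15 wide peaks (1.18%) rose in each and 21 (1.65%) fell in each, against 0.796% and 0.913% of all peaks tested. None went opposite ways, against 0.0915% of all peaks.

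**Figure D5:**
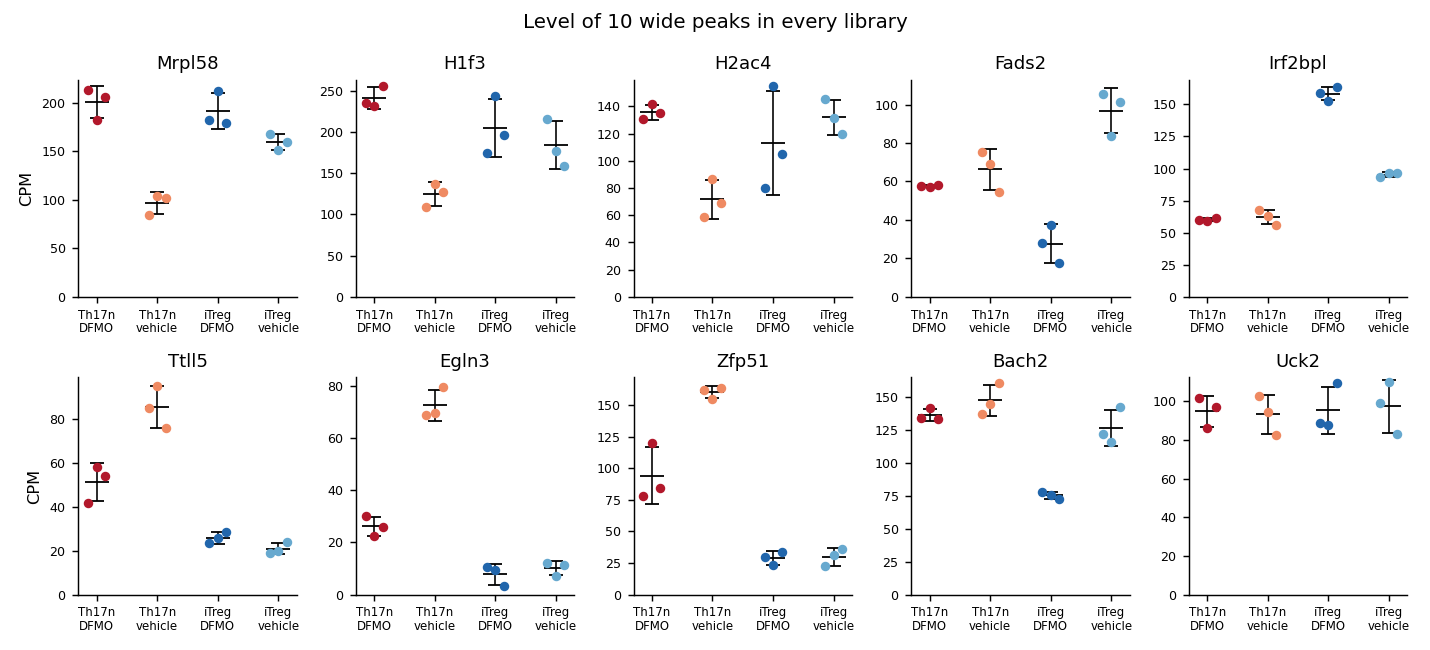
Points are CPM in single libraries for 10 wide peaks, with the mean (bar) and SD (whiskers) of 3 libraries per group; the Bach2 panel shows its peak at 32249867 on chromosome 4. Fads2 and the Bach2 peak are lowest in iTreg DFMO, Mrpl58 and H2ac4 are lowest in Th17n vehicle, Egln3 and Zfp51 are highest in Th17n vehicle, and Uck2 is level.

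Few peaks of the feedback and activation lists passed the threshold with DFMO. List members are named here because they passed it, after their values were seen. In the feedback list 3 of 13 wide peaks (23.1%) rose and 1 (7.69%) fell in Th17n cells, against 8.47% and 3.53% of all wide peaks and 4.5% and 4.28% of all peaks tested: Socs1, Socs2 (0.69, adjusted p = 0.00093) and Cish (0.32, adjusted p = 0.037), all inhibitors of cytokine signalling, and Stat6, which transmits IL-4 signals (-0.47, adjusted p = 0.022). In iTreg cells 1 rose and 3 fell (7.69% and 23.1%, against 4.55% and 8% of all wide peaks): Socs1 rose, while Smad3, a transducer of TGF-beta signals (-0.65, adjusted p = 0.002), Ifngr2, an interferon gamma receptor gene (-0.58, adjusted p = 0.018), and Socs7 (-0.44, adjusted p = 0.05, lost in 16 of 20 alternatives, highest 0.26) fell. The Ifngr2 call was lost in 4 alternatives (highest 0.174) and that of Stat6 in 2 (highest 0.123). For Socs2 the adjusted p was 0.0601 without Th17n DFMO animal 1. For Cish the call was lost in 15 (highest 0.529, with cyclic loess). In the activation list 1 of 20 rose (5%) and 2 fell (10%) in Th17n cells, against 8.47% and 3.53% of all wide peaks, Egr1 (0.36, adjusted p = 0.019) against Zfp36l2, which encodes a protein that destabilises mRNA (-0.41, adjusted p = 0.021), and Dusp2. The Egr1 call was lost in 10 alternatives (highest 0.231) and that of Zfp36l2 in 5 (highest 0.109). In iTreg cells 3 fell (15%, against 8% of all wide peaks): Dusp2, Gadd45b, a stress response gene (-0.35, adjusted p = 0.03), and the outside peak of Nfkbia (-0.53, adjusted p = 0.011). The calls of Gadd45b and Nfkbia were each lost in 4 alternatives (highest 0.163 and 0.191), that of Dusp2 in 0.

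Other lists moved at few peaks. Of 5 wide peaks at polyamine genes, 1 (20%) rose in Th17n cells, against 8.47% of all wide peaks, and none passed in iTreg cells. It was that of Mat2a (0.45 ± 0.14, adjusted p = 0.034). The Mat2a call was lost in 14 of 20 alternatives, with adjusted p = 0.0721 with DESeq2, 0.0906 when scaled by other gene-end peaks and 0.368 without Th17n DFMO animal 1. Amd1 had 103, 77.0 and 91.8 CPM in Th17n DFMO, 67.6, 77.0 and 74.3 CPM in Th17n vehicle, 106, 103 and 107 CPM in iTreg DFMO and 110, 100 and 98.5 CPM in iTreg vehicle, and its DFMO changes were 0.32 and 0.07 (adjusted p = 0.12 and 0.81). Among 13 chromatin gene peaks, Kmt2a, a histone H3 lysine 4 methyltransferase gene (0.60, adjusted p = 0.012), and Brd2, a bromodomain gene (0.36, adjusted p = 0.042), rose in Th17n cells, while Chd4, a remodelling ATPase gene, fell in both lineages (-0.54 and -0.52, adjusted p = 0.042 and 0.045). Of these 13, 15.4% rose and 7.69% fell in Th17n cells, against 8.47% and 3.53% of all wide peaks. In iTreg cells 7.69% fell, against 8%. The Chd4 call was lost in 7 alternatives in Th17n cells (highest 0.247, with libraries thinned) and in 13 in iTreg cells (highest 0.16, without iTreg DFMO animal 2). The Brd2 call was lost in 16 (highest 0.324, with cyclic loess) and that of Kmt2a in 4 (highest 0.215, without Th17n DFMO animal 3). A wide peak outside Ctla4, which encodes an inhibitory receptor, had 58.3, 73.4, 21.3 and 45.2 CPM on average in Th17n DFMO, Th17n vehicle, iTreg DFMO and iTreg vehicle. It fell in iTreg cells with DFMO (-1.12 ± 0.21, adjusted p = 0.00032) and had -0.29 ± 0.18 in Th17n cells (adjusted p = 0.36). In the T cell identity list 1 of 10 fell in Th17n cells (a peak inside Ikzf1, -0.42, adjusted p = 0.02), against 3.53% of all wide peaks, and 3 of 10 in iTreg cells (Cd2 and Cd247, each -0.84, and Runx3, -0.59), against 8%. The Ikzf1 call was lost with libraries thinned (0.1), without Th17n DFMO animals 2 and 3 (0.0605 and 0.121) and without Th17n vehicle animals 2 and 3 (0.126 and 0.0569). The Runx3 call was lost in 5 alternatives (highest 0.116). The cell cycle list had 1 of 11 higher in Th17n cells (9.09%), close to the 8.47% of all wide peaks. That call was lost in 16 of 20 alternatives (highest adjusted p 0.446). The interferon list had 1 of 2 lower in iTreg cells, against 8% of all wide peaks: Irf7 (-0.69, adjusted p = 0.014). For Irf7 that p was 0.138 without iTreg DFMO animal 2, and 0.0602 and 0.0636 without iTreg vehicle animals 2 and 3.

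The DFMO effect differed between the lineages for 23 wide peaks, 20 with a higher effect in Th17n cells and 3 with a lower one (1.57% and 0.235%, against 0.835% and 0.478% of all peaks tested). An unadjusted p under 0.05 was reached by 201 of 1275 wide peaks, against 6094 of all 43726 peaks tested. DESeq2 called 12 and 4. The higher count was 5, 11 and 7 without Th17n DFMO animals 1, 2 and 3, 6, 12 and 6 without Th17n vehicle animals 1, 2 and 3, 5, 43 and 3 without iTreg DFMO animals 1, 2 and 3, and 11 without iTreg vehicle animal 2 or 3. The lower count was 1 without Th17n DFMO animal 1 or Th17n vehicle animal 2, 7 and 0 without iTreg DFMO animals 2 and 3, and 5 without iTreg vehicle animal 1. Bach2 had 3 wide peaks, whose changes were not tested against each other. The one inside the gene at chr4:32249867-32251476 had 134, 141 and 133 CPM in Th17n DFMO, 137, 145 and 160 CPM in Th17n vehicle, 78.1, 75.4 and 72.7 CPM in iTreg DFMO and 122, 116 and 142 CPM in iTreg vehicle. It fell with DFMO in iTreg cells (-0.73 ± 0.12, adjusted p = 7e-05) and had -0.10 ± 0.12 in Th17n cells, a difference of 0.64 ± 0.17 (adjusted p = 0.04, but above 0.05 in 15 of 20 alternatives, highest 0.508 with libraries thinned). The peaks at chr4:32374914-32376692 and at the gene end had DFMO changes of -0.41 and 0.16 in iTreg cells (adjusted p = 0.087 and 0.58).

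Most wide peaks varied less than 2-fold over the 4 groups. The ratio of the highest to the lowest group mean had a median of 1.40, against 1.99 over all peaks tested, 1.5 for other gene-end peaks and 1.45 for peaks of 1000 to 1499 bp. It was at least 2 for 68 wide peaks (5.33%, against 49.8%). A ratio falls with higher counts, so the level of wide peaks bears on it. For 86 wide peaks (6.75%) the 95% intervals of all 4 pairwise log2 changes lay within 0.5 of 0, against 0.633% of all peaks tested and 1.22% of other gene-end peaks. An interval also narrows with higher counts, so the level of wide peaks bears on this share too. For DFMO in Th17n cells the median SE was 0.144 for wide peaks and 0.341 over all peaks tested. Of 20748 peaks below 500 bp, 0 had such intervals. The count of 86 was 460 with cyclic loess. It was 51 and 53 without Th17n DFMO animals 1 and 3, 54 and 55 without Th17n vehicle animals 2 and 3, 47 and 50 without iTreg DFMO animals 1 and 3, and 54 and 57 without iTreg vehicle animals 1 and 2. At the same time 918 (72%) passed the threshold in at least 1 of the 4 comparisons, against 58.6% of all peaks.

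The most even wide peaks were at Foxd1 and Foxl2, forkhead transcription factor genes of other tissues, Uck2, a uridine-cytidine kinase gene, Usp9x, a deubiquitinase gene, LOC102634078 and D11Wsu47e. Uck2 (chr1:167283738-167285603) had 102, 86.1 and 97.0 CPM in Th17n DFMO, 103, 94.7 and 82.8 CPM in Th17n vehicle, 88.6, 87.8 and 110 CPM in iTreg DFMO and 99.2, 110 and 83.1 CPM in iTreg vehicle. All 4 groups overlapped and the ratio of group means was 1.04. Its log2 changes had 95% intervals of -0.21 to 0.34 for DFMO in Th17n cells and -0.27 to 0.27 in iTreg cells. Foxd1 had 23.8 ± 7.34, 23.9 ± 5.18, 24.8 ± 3.33 and 24.7 ± 3.81 CPM in Th17n DFMO, Th17n vehicle, iTreg DFMO and iTreg vehicle (SD, n = 3 each), with intervals of -0.48 to 0.54 and -0.50 to 0.48. Its printed sequence has a CCAAT and a GC box match. The 6 were chosen for their small ratio, so the evenness is a description.

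The threshold on width had no gap around it. Just inside were peaks at Hook2, Rhbdf2 and Ube2r2 (1500 bp; 145, 32.7 and 71.2 CPM) and Macir (1501 bp; 75.3 CPM). Just outside were those at 1700025G04Rik (1498 bp; 50.5 CPM) and at Arpp21, Rcsd1 and Taf5 (1499 bp; 11.9, 63.8 and 95.6 CPM). The 8 wide peaks on unplaced or random contigs had a median of 16.5 CPM. One of them, chrUn_GL456392_21859, named here after its values were seen, averaged 27.5, 12.7, 37.2 and 14.2 CPM in Th17n DFMO, Th17n vehicle, iTreg DFMO and iTreg vehicle and rose with DFMO in both lineages (1.28 ± 0.36 and 1.29 ± 0.33, adjusted p = 0.022 and 0.01).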

How the data were processed

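ATAC-seq was run on 12 cultures (4 groups of 3 animals), read as pairs of 37 bp. The authors deposited 1 table of raw read counts per peak on mm10 with the start and end of each peak. Per the submitters' processing notes, Trimmomatic, FastQC, Bowtie2 and MACS2 were used; the sources used here do not give their settings, the mapping filter or how replicates entered the peak calls. Whether peak starts count from 0 or 1 is not stated, and coordinates are as deposited.

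Width was end minus start. CPM was each count over the library total. Differences were tested on the deposited counts with edgeR 4.0.16 (quasi-likelihood, TMM, filterByExpr with a minimum count of 10) in R 4.3.3, with 4 group means, over 43726 peaks, with Benjamini-Hochberg adjustment. The 4 pairwise comparisons share groups. Errors of log2 changes are SE, those of levels SD. P-values rest on 3 animals per group. Total counts ran from 1020937 to 6496550, and their number limits the precision of low peaks.

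Genes were assigned by distance (up to 100 kb) to protein-coding models of GRCm38.p6, which shows no control of a gene by a peak. Starts and promoter sequences are RefSeq's for that assembly. Named peaks were the 8 widest, the 8 highest, the 4 on either side of the threshold, the 6 with the smallest ratio of group means, up to 6 per direction and comparison with the smallest adjusted p that moved alike in all 3 animals, and up to 3 per gene list by level. Motifs were searched on both strands of the 300-base promoter. Groups that do not overlap at peaks named for a small p follow in part from that choice. The members and lists were chosen with earlier results of these data known.

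Same-numbered libraries came from 1 animal by their labels. The 18 same-animal pairs had residual correlations of -0.055 to 0.075. Replicates of a group correlated at 0.883 to 0.96 and all differed beyond sampling noise (chi-square per degree of freedom at least 2.03). Alternatives were DESeq2 1.42.0, its size factors, limma 3.58.1 (voom with cyclic loess), library totals, no filter, thinning to the smallest total, a replicate block, other widths and leaving out each library. The steps were tested on simulated data.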

Additional observations from a re-analysis of the deposited data

Results flagged for a closer look

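In 14 of the 108 named wide peaks, the effect of DFMO differed between the lineages by a test of the difference itself (edgeR interaction term, adjusted over 43726 peaks; log2 effect in Th17n minus that in iTreg cells, ± SE). The named peaks were partly chosen for a small p of this test, so their number follows from the choice; over all wide peaks 1.80% passed it, against 1.31% of all peaks tested. For 3 of these the adjusted p stayed under 0.05 in every alternative run: Fads2 (1.67 ± 0.25, adjusted p = 0.00012, highest 0.029), the chromosome 8 peak at 34671416 (1.42 ± 0.23, adjusted p = 0.00038, highest 0.0072) and H2ac4 (1.08 ± 0.21, adjusted p = 0.0036, highest 0.043). The chromosome 8 peak, with no protein-coding gene within 100 kb, had 80.3, 78.7 and 97.0 CPM in Th17n DFMO, 78.4, 83.7 and 69.3 CPM in Th17n vehicle, 24.7, 37.5 and 28.4 CPM in iTreg DFMO and 59.8, 73.1 and 85.9 CPM in iTreg vehicle. Only the iTreg DFMO libraries stood apart.

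The other positive differences lost the call in at least 1 alternative. Ostf1 had 1.59 ± 0.33 (adjusted p = 0.0059, and 0.066 without iTreg DFMO animal 3). Mrpl58 had 0.76 ± 0.16 (adjusted p = 0.0062, highest 0.0763 without Th17n DFMO animal 1, and above 0.05 also without Th17n vehicle animal 1 or iTreg DFMO animal 3). The Ctc1 peak had 0.79 ± 0.17 (adjusted p = 0.0067, and 0.0615 and 0.0774 without iTreg DFMO animals 1 and 3). H1f3 had 0.76 ± 0.17 (adjusted p = 0.011, highest 0.091 over 6 lost settings). Alyref2 had 0.72 ± 0.18 (adjusted p = 0.024, lost in 10, highest 0.205), Pisd 0.78 ± 0.19 (adjusted p = 0.025, lost in 9, highest 0.182), Nfic 0.89 ± 0.23 (adjusted p = 0.035, lost in 10, highest 0.186) and the Bach2 peak inside the gene 0.64 ± 0.17 (adjusted p = 0.04, lost in 15, highest 0.508).

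The 3 negative differences were Irf2bpl (-0.76 ± 0.18, adjusted p = 0.018, and 0.0811 with libraries thinned), Ttll5 (-1.06 ± 0.26, adjusted p = 0.025, and 0.092, 0.101, 0.0969 and 0.075 without Th17n DFMO animal 1, Th17n vehicle animal 2, iTreg DFMO animal 3 or iTreg vehicle animal 2) and Ankmy2 (-0.69 ± 0.17, adjusted p = 0.029, lost in 8, highest 0.117). The Irf2bpl call was also lost without Th17n vehicle animal 2 or iTreg DFMO animal 3 (0.0547 and 0.0529).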

How the results depend on the processing

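Scaling and single libraries both moved the counts, and the cause was not tested. With cyclic loess, higher and lower wide peaks numbered 60 and 136 for DFMO in Th17n (main values 108 and 45), 173 lower for DFMO in iTreg (102), 228 and 154 for lineage in vehicle (43 and 652), 158 and 54 for lineage in DFMO (53 and 486) and 11 lower for the interaction (3), and 460 wide peaks lay within 0.5 (86). Scaled by other gene-end peaks, an alternative chosen after seeing the data, the counts were 56 and 87, 27 higher in iTreg (58), 118 and 122, and 148 and 58. Thinned to the smallest total they were 55 and 29, 50 lower in iTreg, 301 and 270 lower for lineage in vehicle and in DFMO, and 11 and 1 for the interaction (20 and 3). Without a filter 65 were higher in Th17n and 11 for the interaction. DESeq2 gave 12 higher and its size factors 5 lower for the interaction. Among gene-end wide peaks alone, which are fewer and were also chosen after seeing the data for the counts, 21 were lower in Th17n, 54 lower in iTreg, 12 and 16 higher for lineage, and 11 and 1 passed the interaction. Their share of counts differed by 0.311 points between DFMO and vehicle (exact permutation p = 0.035, Benjamini-Hochberg p = 0.0583).

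With animal as a replicate block, the counts were 115 and 42, 58 and 104, 43 and 662, 59 and 479, and 26 and 4, and 86 for stability. The DFMO falls at Igtp in Th17n cells and at Socs7 in iTreg cells lost their calls (adjusted p = 0.058 and 0.0552), and the block changed no other call of a named peak. Leaving out 1 library gave 28 to 130 and 25 to 60 for DFMO in Th17n, 12 to 55 and 44 to 115 in iTreg, 32 to 45 and 402 to 704 for lineage in vehicle, 38 to 62 and 326 to 532 in DFMO, 3 to 43 and 0 to 7 for the interaction, 47 to 71 for stability with a median ratio of 1.39 to 1.42, and share differences of 0.231 to 0.373 points for DFMO and -1.92 to -1.76 points for lineage.

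Some named lineage changes that were negative by TMM turned positive. With cyclic loess, 6 of 21 such changes in vehicle and 4 of 10 in DFMO passed the threshold in the opposite direction: Jun (adjusted p = 5.02e-07), Gm20783 (0.000112), Socs1 (0.00141), Zfp958 (0.00502), Gsk3b (0.0173) and Kdm6b (0.0466) in vehicle, and Gm20783 (0.00232), Ptma (0.00688), Egr1 (0.0265) and Jun (0.0281) in DFMO. In vehicle with cyclic loess they were Arid4a 0.13, Azin1 0.15, Bach2 at its gene end 0.00056, Brd2 0.038, Ccne2 0.10, Cep57 0.075, Cish 0.15, Gm20783 0.20, Gm38469 0.12, Gsk3b 0.14, H3c1 0.0026, Jun 0.33, Kdm6b 0.13, Klf13 0.052, Nfkbia 0.047, Ptma 0.065, Sin3a 0.035, Slc2a3 0.072, Slc7a1 0.15, Socs1 0.21 and Zfp958 0.19. In DFMO they were Azin1 0.11, Egr1 0.22, Gm20783 0.25, Gsk3b 0.079, Jun 0.20, Nfkbia 0.076, Ptma 0.21, Slc2a3 0.16, Srgap2 0.035 and Zfp958 0.14. Scaled by other gene-end peaks, Azin1 had 0.020, Jun 0.063 and Zfp958 0.0081 in vehicle, and Egr1 0.022 and Jun 0.013 in DFMO. Of the other values under an alternative, 3702 counted as unchanged, and 498 of named peaks kept direction only. For a named peak, unchanged meant the same direction and side of the threshold. The 3702 also hold median changes of wide peaks, for which it meant a shift below their median SE, and 4 such medians moved further. Reads of 37 bp may be shared between copies of histone and tRNA genes and of unplaced contigs.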
